A study of Sus scrofa with 189 samples.

Results

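The muscles of 84 pigs at the ends of the CRYAB range were compared: the 42 libraries with the most CRYAB and the 42 with the least, out of 168 libraries whose titles carry no re-analyzed mark and 189 libraries in the series. CRYAB encodes αB-crystallin, a small heat shock protein. FPKM, a value scaled to transcript length and to the mapped fragments of a library, were summed over the 2 listed CRYAB transcripts in each library, and the libraries were ordered by this sum. The 84 libraries between them were ranked in the same order but are in neither group. The 21 re-analyzed libraries took no part in this choice. The question was whether CRYAB varies alone or together with a stress or fibre programme.

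All animals were first-generation crosses of Duroc boars with Luchuan sows, reared on 1 farm on a common diet and killed at 210 ± 6 days at 1 abattoir. Polyadenylated RNA came from the longissimus dorsi, the long back muscle, 25 minutes after death. The labels name no treatment, and the groups were formed by the measured CRYAB level, not by a label. The labels count 8 boars, 112 or 158 sows in different fields, and 265 first-generation pigs. The parents of each animal are not in the labels. With 8 boars, some animals within each group must share a sire, so the animals are not all unrelated. The tests nevertheless treat animals as independent, and the part of shared parents in the results was not tested.

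Small heat shock proteins hold unfolding proteins in a soluble state without using ATP. HSP70 and HSP90 machines, helped by co-chaperones such as BAG3, then refold these clients or pass them on for breakdown. In striated muscle αB-crystallin and its relatives are known to bind desmin, filamin C and titin at the Z-disc, and slow, oxidative muscle is known to hold more αB-crystallin than fast muscle.

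Library totals of the groups differed by less than the spread between libraries. Summed FPKM ranged from 364102 to 464974 over the unmarked libraries, and 7802 to 10613 genes reached 1 FPKM. Summed FPKM, the number of genes at 1 FPKM, the share of the 10 most abundant genes (35.1% ± 4.27 in the CRYAB-high and 34.4% ± 4.74 in the CRYAB-low group, SD, n = 42 each) and the share of mitochondrially encoded genes (6.15% ± 1.75 against 6.77% ± 2.17) each had a Benjamini-Hochberg adjusted permutation p of 0.519 over these 4 measures (2-sided). Intramuscular fat was 3.35 ± 0.683 in 39 CRYAB-high animals with a record and 3.13 ± 1.04 in 37 CRYAB-low animals (permutation p = 0.286, 2-sided, unit not stated in the labels). Of the CRYAB-high group 14 of 42 titles, and of the CRYAB-low group 16 of 42, begin with the digits 15 rather than 16 (Fisher's exact test, p = 0.820, 2-sided). What these digits stand for is not stated. No pair of libraries held identical values. Library 39 (the number in its label), which had the lowest median correlation with the others (0.874), lies between the 2 groups and so in neither of them.

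CRYAB (ENSSSCG00000036724) lies on the minus strand of chromosome 9 at 39638506 to 39643530 (Sscrofa11.1). In the CRYAB-low group it had 2.23 FPKM at the lowest, a median of 9.59 and 33.2 at the highest. In the CRYAB-high group these values were 220, 411 and 1655 FPKM. The medians therefore stood 42.9-fold apart, and the 2 groups cannot overlap, because they were chosen on these values. The libraries next to the limits had nearly the same level: 33.2 FPKM was the highest of the CRYAB-low group and 34.8 the lowest of the 42 libraries next above it, and 218 was the highest of the 42 next below the CRYAB-high group, where 220 was the lowest. These lower middle and upper middle groups of 42 libraries had medians of 68.1 and 142 FPKM, and the 21 re-analyzed libraries had 3.18 at the lowest, a median of 39.9 and 572 at the highest. The SD of log2(FPKM + 1) over the unmarked libraries was 2.05 for CRYAB against a median of 0.37 over the genes tested. The plot of CRYAB in each library shows an unbroken slope with no gap at either limit.

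**Figure D1:**
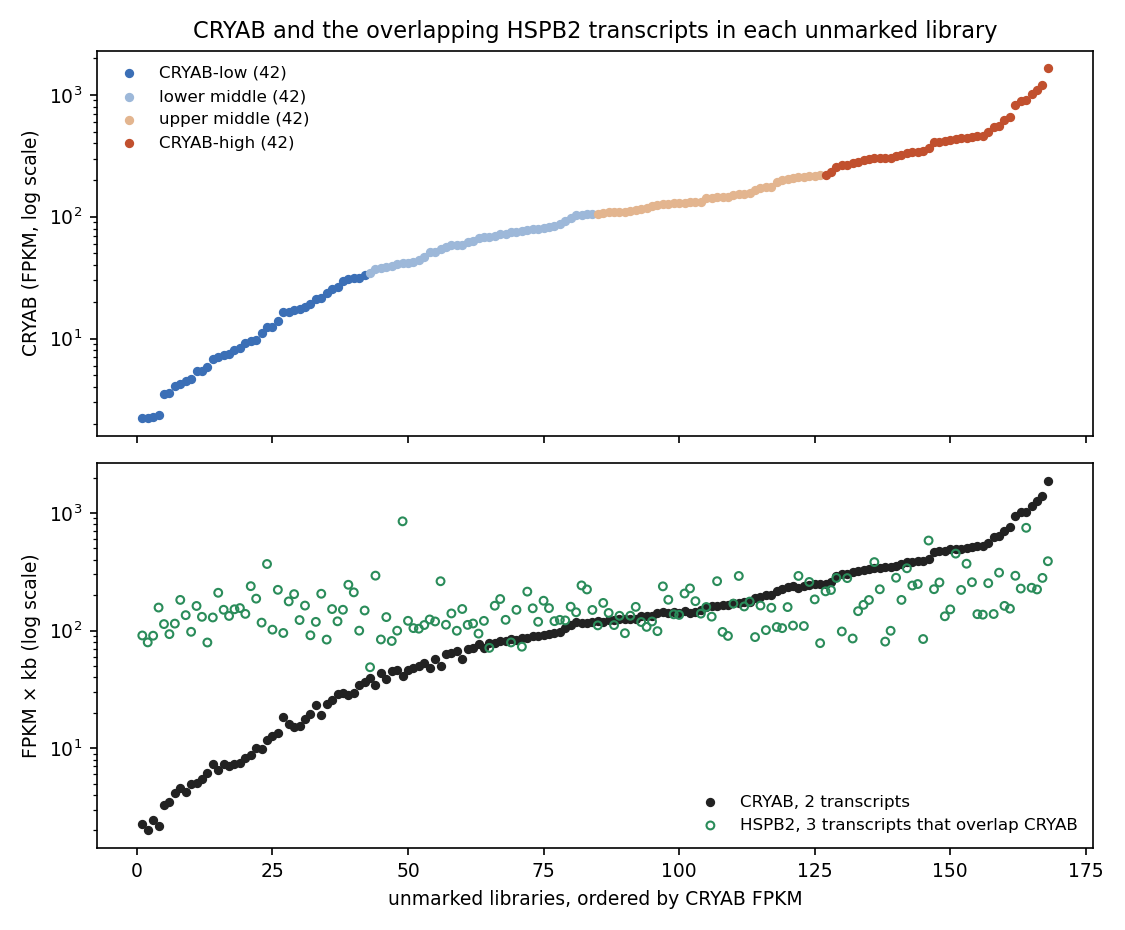
CRYAB in the 168 unmarked libraries, ordered by CRYAB FPKM (upper panel, log scale, coloured by group of 42), and the same libraries with FPKM × kb of the CRYAB transcripts (filled) and of the 3 HSPB2 transcripts that overlap them (open, lower panel, log scale). CRYAB climbs from 2.23 to 1655 FPKM, while the overlapping HSPB2 transcripts have medians of 137, 123, 138.4 and 225 FPKM × kb from the lowest to the highest group.

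Nearly all of this range belonged to 1 of the 2 listed CRYAB transcripts. The longer one, ENSSSCT00000059078 (5 exons, 1143 bases), had a median of 2.78 FPKM in the CRYAB-low group, 136 in the upper middle and 405 in the CRYAB-high group. The shorter one, ENSSSCT00000051446 (6 exons, 881 bases), had 5.54 in the CRYAB-low and 5.84 FPKM in the CRYAB-high group. Over the 168 libraries Spearman's rho between the 2 transcripts was -0.03, given as a description.

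The CRYAB gene body is overlapped on the opposite strand by transcripts listed under HSPB2, the small heat shock protein gene that neighbours CRYAB. The largest of these, ENSSSCT00000048368 (2 exons, 3509 bases, 39640138 to 39644107 on the plus strand), covers 3393 bases of the CRYAB span and had a median of 37.9 FPKM in the CRYAB-low and 62.9 in the CRYAB-high group. The labels do not state that the library kit keeps the strand of the RNA. Without strand, unspliced reads in the sequence that CRYAB shares with these HSPB2 transcripts cannot be told apart, and their split rests on the assembly software. Taking the locus as 1 unit, FPKM × kb summed over both CRYAB transcripts and the 3 overlapping HSPB2 transcripts was 81.4 at the lowest, 148 at the median and 380 at the highest in the CRYAB-low group. In the CRYAB-high group it was 400, 676 and 2278. These ranges do not overlap either, but the medians stood 4.57-fold apart instead of 42.9-fold. The total includes the CRYAB values by which the groups were chosen, so this separation is partly set by that choice. The overlapping HSPB2 transcripts alone ran from 79.2 to 368 FPKM × kb in the CRYAB-low group. In the CRYAB-high group they ran from 80.6 to 749, with medians 1.64-fold apart. The median share of the locus assigned to CRYAB was 5.47% in the CRYAB-low group, 35.6% in the lower middle, 52.2% in the upper middle and 68.0% in the CRYAB-high group.

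**Figure D2:**
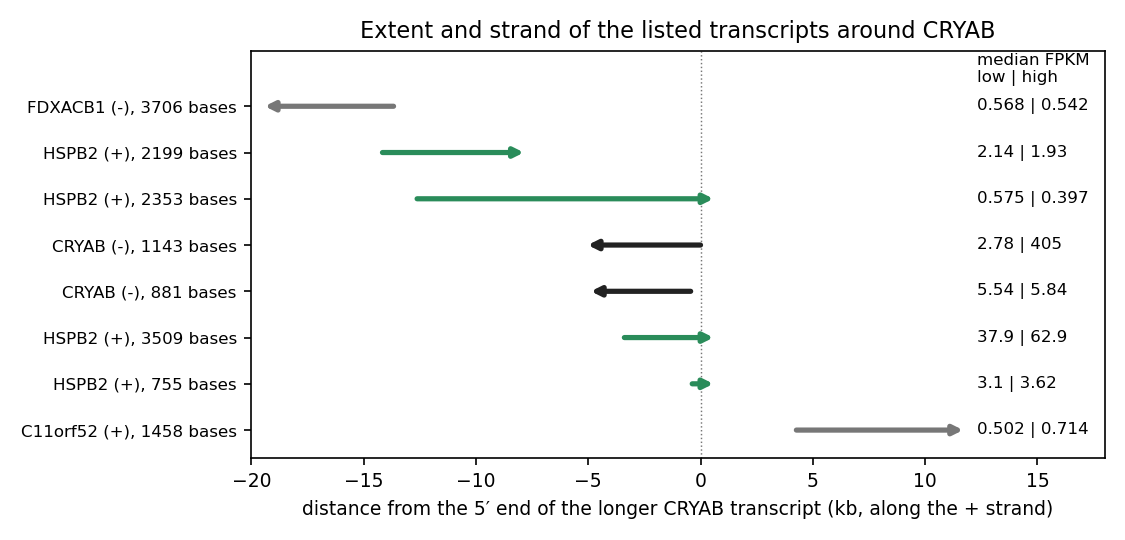
Extent and strand (arrow) of the listed transcripts around CRYAB, as distance from the 5′ end of the longer CRYAB transcript (kb), with the median FPKM of the CRYAB-low and CRYAB-high groups at the right. The longer CRYAB transcript goes from 2.78 to 405 FPKM, while the HSPB2 transcript of 3509 bases, which runs the other way over most of the same span, goes from 37.9 to 62.9.

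Few genes passed the test with CRYAB, and most of them were chaperones. Between the groups 5 of 10719 genes were higher in CRYAB-high muscle (0.0466% of the genes tested) and 1 was lower (0.00933%), by limma on log2(FPKM + 1), 2-sided, with a Benjamini-Hochberg adjusted p under 0.05. The 5 were the small heat shock protein genes HSPB1, HSPB8 and HSPB2, the HSP110 gene HSPH1 and the cytokine receptor gene TNFRSF12A. The 1 lower gene was CPT2, an enzyme of mitochondrial fatty acid import. Their differences lay between 0.36 and 1.01 log2 units in size, far under that of CRYAB itself. With quantile normalization the test called 16 higher and 7 lower, which lowers the share of higher calls. In a bulk muscle sample, fewer cells of a type and less RNA per cell cannot be told apart.

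These 6 calls stood close to the threshold, with an adjusted p of 0.0476 each (limma). Leaving out 1 of the 84 libraries at a time gave between 0 and 50 calls, and 37 of the 84 libraries were each needed for any call to be made. Groups by the longer CRYAB transcript, an alternative added after the values were seen, shared 41 of 42 high and 38 of 42 low libraries and called 0 higher and 1 lower gene. Without adjustment, 363 genes were higher (3.39%) and 617 lower (5.76%) at p under 0.05. Over all genes 41.0% had a positive difference, and the median difference was -0.02. Lists are read against these shares below. They describe how members moved and are no test of the list.

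HSPB1 encodes HSP27, a small heat shock protein that protects actin and other cytoskeletal clients (chromosome 3, 10037946 to 10039704, minus strand). It had 287 FPKM at the lowest, 834 at the median and 3223 at the highest in the CRYAB-low group, and 269, 1600 and 10267 in the CRYAB-high group. The CRYAB-low range lies within the CRYAB-high range, which reaches higher, and 37 of 42 CRYAB-high libraries lay above the CRYAB-low median. The mean was 1093 ± 759 FPKM (SD, n = 42) in the CRYAB-low and 2265 ± 1910 in the CRYAB-high group, which is 0.97 higher on the log2 scale (SE 0.205, limma adjusted p = 0.0476). An unnamed gene lies opposite HSPB1 on the other strand, with a median of 12.5 FPKM in the CRYAB-low and 11.5 in the CRYAB-high group (difference 0.15, SE 0.307, limma adjusted p = 0.940).

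HSPB8, the partner of BAG3 in chaperone-assisted autophagy, spanned 43.1, 153 and 709 FPKM (lowest, median, highest) in the CRYAB-low group and 62.6, 334 and 1340 in the CRYAB-high group. Its difference was 0.90 log2 units (SE 0.201, limma adjusted p = 0.0476), with 34 of 42 CRYAB-high libraries above the CRYAB-low median. The overlap of the groups is again wide.

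HSPB2 also passed the test, but its transcripts share the CRYAB locus. It had 25.9, 44.6 and 113 FPKM in the CRYAB-low and 27.1, 69.3 and 219 in the CRYAB-high group, a difference of 0.56 (SE 0.123, limma adjusted p = 0.0476). If the library kit does not keep the strand, unspliced reads in the sequence that HSPB2 and CRYAB share cannot be told apart. This call would then not be independent of the ordering by CRYAB. Whether the kit keeps the strand was not tested. The list of small heat shock proteins held 6 tested genes with HSPB2, of which 5 had a positive difference and 3 were called higher, with a median of 0.49. Without HSPB2 it held 5 genes, 2 called higher, and its median was 0.42.

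The other small heat shock proteins did not pass. HSPB7, which is most abundant in heart and skeletal muscle, had a median of 72.5 FPKM in the CRYAB-low and 95.7 in the CRYAB-high group (difference 0.42, SE 0.163, limma adjusted p = 0.332). HSPB6 had 93.0 against 84.1 FPKM (difference -0.17, SE 0.0937). HSPB3, the partner of HSPB2 in a muscle complex, had 9.46 in both groups (difference 0.15, SE 0.0915). HSPB6 thus had the opposite sign to its relatives, within the spread of its libraries. CRYAA was not matched in the table.

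HSPH1 encodes HSP110, a nucleotide exchange factor that recharges HSP70. It had 1.95, 9.71 and 59.4 FPKM (lowest, median, highest) in the CRYAB-low group and 2.81, 20.0 and 104 in the CRYAB-high group. The difference was 1.00 log2 units (SE 0.226, limma adjusted p = 0.0476), and 38 of 42 CRYAB-high libraries lay above the CRYAB-low median. HSPA8, the constitutive HSP70 of the cytosol, had 229, 445 and 966 FPKM in the CRYAB-low and 297, 577 and 936 in the CRYAB-high group. Its difference of 0.41 (SE 0.0951) narrowly missed the threshold (limma adjusted p = 0.0508). HSP90AA1, the inducible cytosolic HSP90, went from a median of 258 to 380 FPKM (difference 0.56, SE 0.141, limma adjusted p = 0.0543). WDR20 overlaps HSP90AA1 on the other strand, with a median of 2.70 FPKM in the CRYAB-low and 2.74 in the CRYAB-high group.

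Of the HSP70, HSP90 and chaperonin list 22 genes were tested, 20 had a positive difference and 1, HSPH1, was called higher. The list's median was 0.18, and 8 members were higher and 1 lower at an unadjusted p under 0.05. CCT8, a subunit of the cytosolic chaperonin that folds actin and tubulin, had 0.34 (SE 0.108, limma adjusted p = 0.182). HSPA5, the HSP70 of the endoplasmic reticulum, named after its value was seen, had 0.01 (SE 0.0733). HSPA1A and HSPA1B, the classical inducible HSP70 genes, were not matched in the table and are not analysed here.

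Co-chaperones leaned the same way without a call. Of 32 tested, 26 had a positive difference, 9 were higher and 0 lower at an unadjusted p under 0.05, and the median was 0.10. BAG3, which links HSP70 to HSPB8 and to filamin turnover, had 25.9, 65.8 and 220 FPKM in the CRYAB-low and 27.4, 116 and 453 in the CRYAB-high group (difference 0.71, SE 0.165, limma adjusted p = 0.0508). TIAL1 overlaps BAG3 on the other strand, with a median of 5.47 FPKM in the CRYAB-low and 5.74 in the CRYAB-high group. The HSP90 activator AHSA1 had 0.29 (SE 0.0788, limma adjusted p = 0.0853) and STIP1, the adaptor between HSP70 and HSP90, 0.47 (SE 0.133, limma adjusted p = 0.121). DNAJA4, an HSP40 of striated muscle, had 0.70 (SE 0.205, limma adjusted p = 0.140). DNAJB1, an HSP40 that is among the strongest heat-induced genes in many cells, had 0.03 (SE 0.145) and was named after its value was seen.

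**Figure D3:**
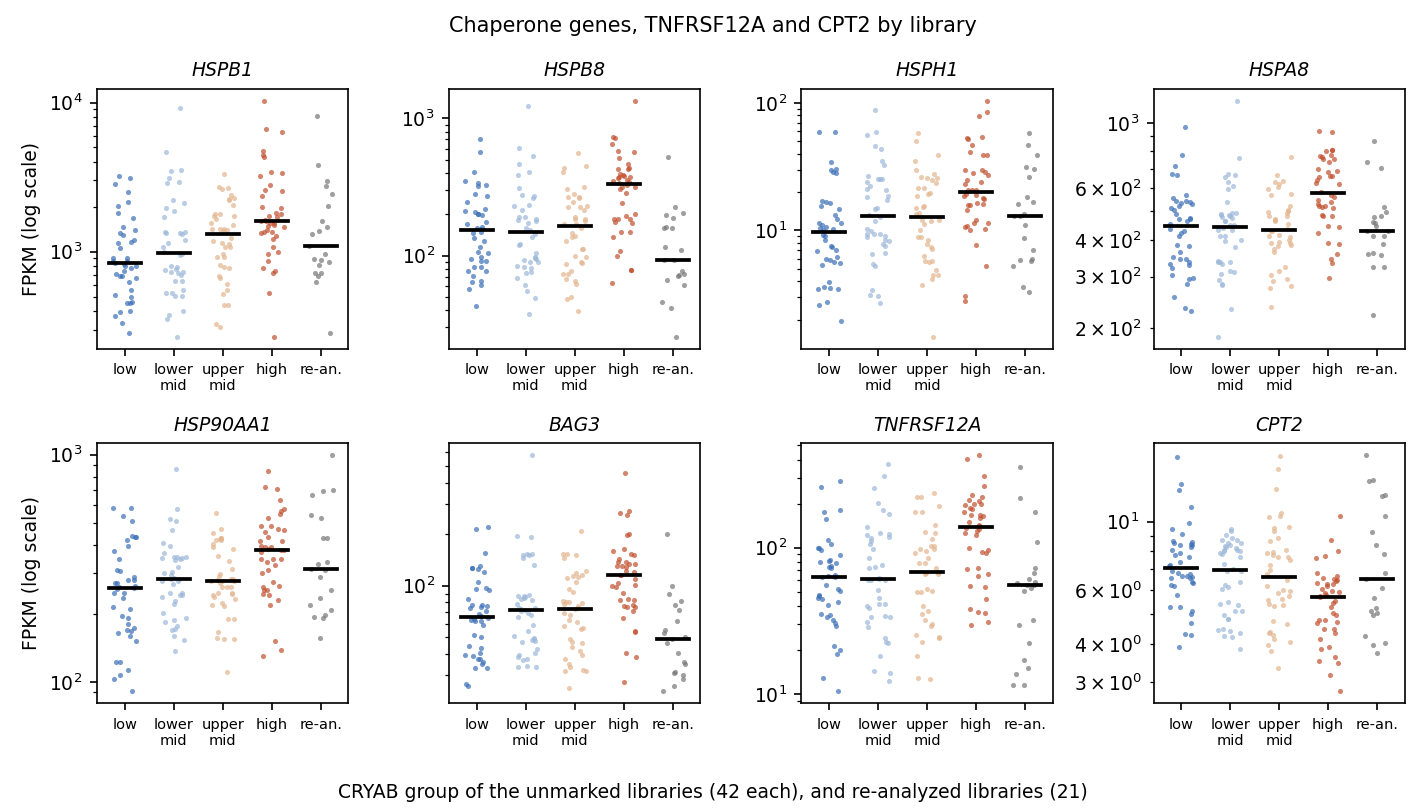
FPKM of HSPB1, HSPB8, HSPH1, HSPA8, HSP90AA1, BAG3, TNFRSF12A and CPT2 by CRYAB group of 42 (low, lower middle, upper middle, high) and in the re-analyzed libraries (each point 1 library, bar the median, log scale, points spread sideways for legibility). The CRYAB-high group lies above the CRYAB-low group in the chaperone genes and TNFRSF12A and below it in CPT2, with ranges that overlap in all 8 panels.

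TNFRSF12A, the receptor of the cytokine TWEAK, which muscle raises after injury or disuse, had 10.5, 62.8 and 286 FPKM in the CRYAB-low group and 29.9, 138.3 and 428 in the CRYAB-high group. Its difference of 1.01 (SE 0.215, limma adjusted p = 0.0476) was as large as that of HSPH1. Z-disc and stretch genes were described next, since they hold the clients of αB-crystallin. TTN, which encodes titin, and LDB3 were not matched among the listed genes, so this list lacks them. Of 26 tested, 19 had a positive difference, 9 were higher and 1 lower at an unadjusted p under 0.05, 0 were called, and the median was 0.11. FLNC, filamin C, had a median of 296 FPKM in the CRYAB-low and 522 in the CRYAB-high group (difference 0.70, SE 0.167, limma adjusted p = 0.0520).

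XIRP1, an actin-binding protein of stressed Z-discs, had a difference of 1.02 (SE 0.272, limma adjusted p = 0.0853). PDLIM3 had 0.53 (SE 0.143) and NRAP 0.50 (SE 0.137), with adjusted p of 0.0853 and 0.0946. From the list of muscle atrophy and autophagy genes, KLHL40, which stabilizes thin filament proteins, had 0.66 (SE 0.176, limma adjusted p = 0.0853) and TRIM54, a sarcomere-bound ubiquitin ligase, 0.51 (SE 0.130, limma adjusted p = 0.0630). DES, which encodes desmin, the best known client, had medians of 2322 and 2284 FPKM and a difference of -0.04 (SE 0.0863). The medians of DES were thus nearly equal where those of FLNC were not, and the difference between the 2 genes was not tested.

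No fibre type list held a call. MYH1 of the fast list and MB and MYL6B of the slow list were not matched among the listed genes and are not analysed here. Of 17 slow fibre genes tested, 4 had a positive difference, 1 was higher and 3 were lower at an unadjusted p under 0.05, and the median was -0.17. MYH7, the slow myosin heavy chain, had 244, 841 and 1556 FPKM in the CRYAB-low and 244, 687 and 1682 in the CRYAB-high group (difference -0.27, SE 0.138, limma adjusted p = 0.557). The slow calcium pump ATP2A2 had -0.38 (SE 0.119, limma adjusted p = 0.182) and slow myosin binding protein MYBPC1 -0.33 (SE 0.103, limma adjusted p = 0.172). ANKRD2, a stretch-responsive protein of slow fibres, had 0.88 (SE 0.254, limma adjusted p = 0.124), the 1 slow gene with an unadjusted p under 0.05 on the higher side. The summed level of the slow list ran from 4994 to 12120 FPKM in the CRYAB-low and from 5068 to 12164 in the CRYAB-high group, ranges that nearly coincide.

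Of 15 fast fibre genes tested, 10 had a positive difference and the median was 0.07. MYH4, the fastest myosin heavy chain of pig muscle, had 0.03 (SE 0.137), and MYH2 had -0.15 (SE 0.109). TNNI2, the fast troponin I, had 0.19 (SE 0.0790, limma adjusted p = 0.395), and MYBPC2, the fast myosin binding protein, -0.17 (SE 0.0614, limma adjusted p = 0.275). Myosin heavy chain genes are near-identical over long stretches, and their reads may be split between them. MYH7, MYH4 and MYH2 were named after their values were seen. Fast fibre genes summed to 42871 to 81217 FPKM in the CRYAB-low and 42545 to 83988 in the CRYAB-high group, far above the slow level in either, as the fast longissimus is known to have. Developmental and regeneration genes, such as embryonic myosin MYH3 (-0.14, SE 0.0856), had 5 positive differences of 12 and a median of -0.02.

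**Figure D4:**
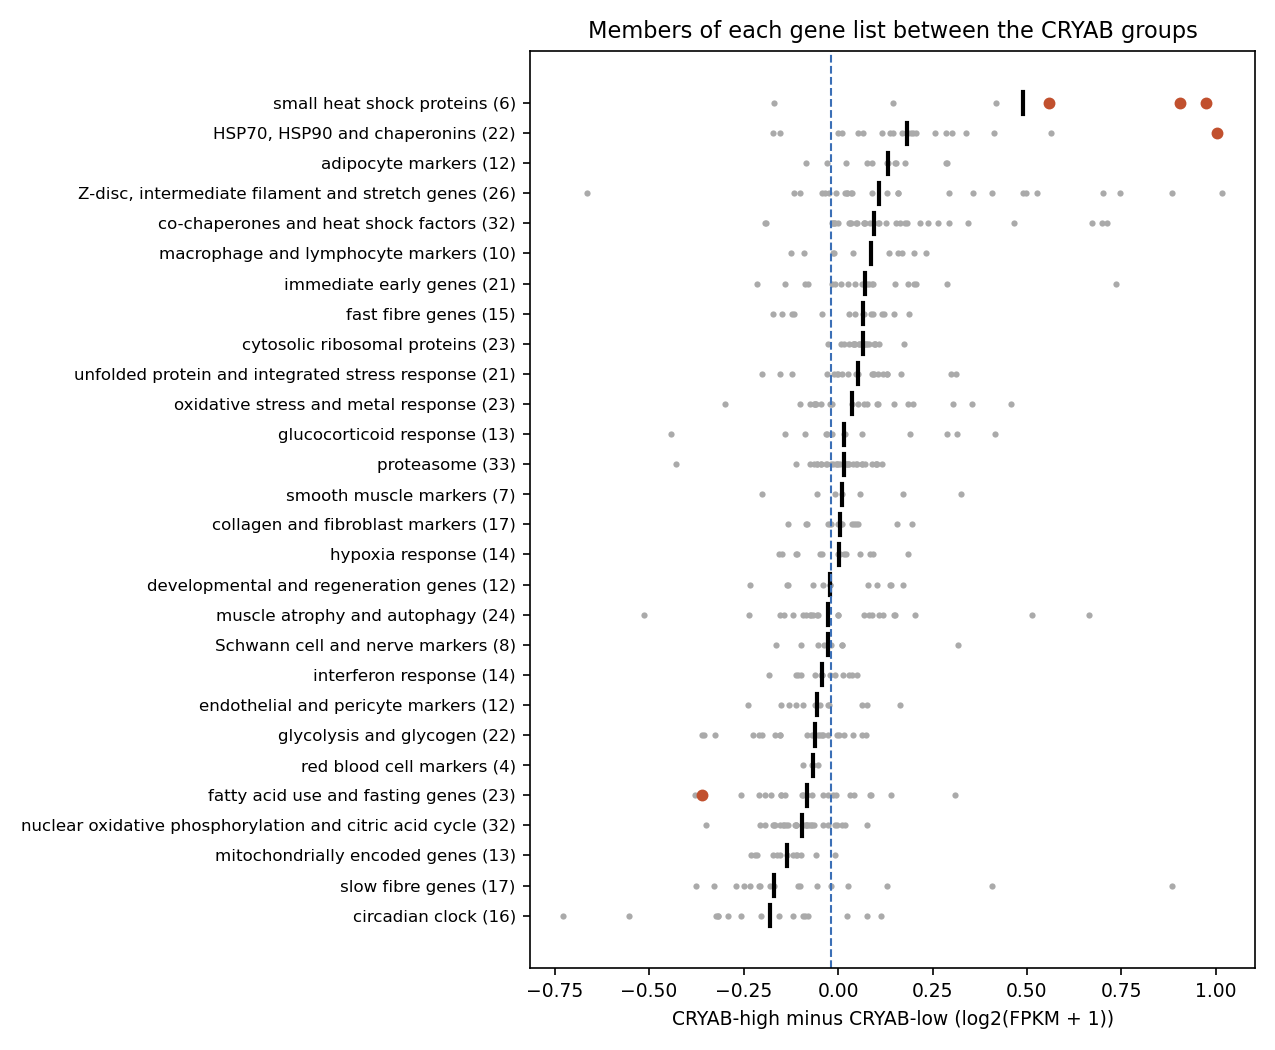
Difference between the CRYAB-high and CRYAB-low groups (log2(FPKM + 1)) for each tested member of 28 gene lists (number tested in brackets), with the median of each list (black bar), called genes (large red points) and the median of all genes (dashed line, -0.02). Small heat shock proteins lie farthest right with a median of 0.49, and the circadian clock list farthest left with -0.18.

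Other stress lists held no call between the 2 groups by CRYAB. Of 21 genes of the unfolded protein and integrated stress response 14 had a positive difference and the median was 0.05; HERPUD1, of protein disposal from the endoplasmic reticulum, had -0.20 (SE 0.0796). Oxidative stress genes had 12 positive of 23 and a median of 0.04, with SRXN1, which reactivates peroxiredoxins, at 0.46 (SE 0.145, limma adjusted p = 0.182) and catalase, CAT, at -0.30 (SE 0.104). Hypoxia genes had 7 positive of 14 and a median of 0.00. Glucocorticoid response genes had 7 positive of 13 and a median of 0.02, with TSC22D3 at 0.32 (SE 0.110, limma adjusted p = 0.253). Immediate early genes had 15 positive of 21 and a median of 0.07, with the stress-induced factor ATF3 at 0.74 (SE 0.311, limma adjusted p = 0.402). Interferon response genes had 4 positive of 14 and a median of -0.04.

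Most genes of the energy lists had negative differences. CPT2 had 3.92, 7.04 and 16.2 FPKM in the CRYAB-low and 2.81, 5.71 and 10.4 in the CRYAB-high group, with a difference of -0.36 (SE 0.0784, limma adjusted p = 0.0476), and 5 of 42 CRYAB-high libraries lay above the CRYAB-low median. It was the 1 call among 23 fatty acid use and fasting genes, of which 6 had a positive difference and whose median was -0.08. SDHC, a membrane subunit of succinate dehydrogenase, had medians of 33.2 and 26.4 FPKM (difference -0.35, SE 0.0846, limma adjusted p = 0.0520). Of 32 nuclear genes of oxidative phosphorylation and the citric acid cycle 3 had a positive difference, 9 were lower at an unadjusted p under 0.05 and 0 were called, with a median of -0.10. MFN2, which fuses mitochondria, had medians of 19.7 and 15.3 FPKM (difference -0.67, SE 0.165, limma adjusted p = 0.0520).

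None of the 13 mitochondrially encoded genes had a positive difference (median -0.13, 0 at an unadjusted p under 0.05, 0 called by limma). With the mitochondrial share of the library as a covariate 9 of 13 were positive. That share is computed from mitochondrially encoded genes, so this fit cannot show whether they differ. Glycolysis and glycogen genes had 5 positive of 22 and a median of -0.06, with the muscle glycogen phosphorylase PYGM at -0.21 (SE 0.0683, limma adjusted p = 0.206). Proteasome genes had 19 positive of 33 (median 0.02), and muscle atrophy and autophagy genes 11 of 24 (median -0.03). In the latter list CAPN3, a sarcomeric calpain, had -0.23 (SE 0.0644, limma adjusted p = 0.0946) and the growth inhibitor MSTN -0.51 (SE 0.177, limma adjusted p = 0.250). Cytosolic ribosomal protein genes had small positive differences in 22 of 23 (median 0.07, 0 called).

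The circadian clock list held 3 positive differences of 16, 7 lower at an unadjusted p under 0.05 and 0 called, with a median of -0.18. Its clock output factor DBP had 0.483, 7.05 and 84.2 FPKM in the CRYAB-low and 0.744, 3.81 and 50.8 in the CRYAB-high group (difference -0.73, SE 0.249, limma adjusted p = 0.240). TEF (-0.55, SE 0.170), CIART (-0.29, SE 0.0835) and PER2 (-0.32, SE 0.115) had the same sign, with limma adjusted p from 0.121 to 0.280. The hour of slaughter is not in the labels, and its part in these values was not tested.

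Lists of markers of other cells of the muscle held no call. Adipocyte markers had 10 positive differences of 12 (median 0.13, 0 called, ADIG 0.29), and their summed level ran from 318 to 827 FPKM in the CRYAB-low and 294 to 733 in the CRYAB-high group. Macrophage and lymphocyte markers (6 positive of 10, median 0.09) summed to 129 to 393 and 157 to 427 FPKM. Collagen and fibroblast markers (10 of 17, median 0.01) summed to 489 to 2478 and 638 to 2551. Endothelial and pericyte markers (3 of 12, median -0.05) summed to 65.0 to 175 and 63.3 to 178. Smooth muscle (4 of 7, median 0.01), red blood cell (0 of 4, median -0.07) and Schwann cell and nerve markers (3 of 8, median -0.03) were alike in this. At most 2 markers of a list were at 0 in any library of either group, and the part of these cells in the results was not tested. Signs of the medians of the 28 lists were the same under quantile normalization and median scaling, apart from developmental genes, whose median was 0.01 under quantile normalization.

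By medians, HSPB8, BAG3 and TNFRSF12A stood higher only at the top of the CRYAB order. In eighths of 21 libraries, from lowest to highest CRYAB, the median of CRYAB was 5.45, 19.4, 46.8, 80.0, 123, 176, 301 and 548 FPKM. The HSPB8 median was 133, 160, 152, 143, 170, 146, 315 and 342 FPKM. That of BAG3 was 62.5, 66.5, 74.3, 71.6, 72.7, 76.0, 116 and 116. Both were nearly flat over the first 6 eighths, a span over which CRYAB itself went from 5.45 to 176 FPKM, and higher in the last 2. TNFRSF12A had the same form, with medians from 59.9 to 68.2 FPKM over the first 6 eighths and of 141 and 136 in the last 2. HSPB1 had medians of 859, 805, 1081, 943, 1410, 1186, 1604 and 1596 FPKM, which went up and down from one eighth to the next and were highest in the last 2. HSPH1 went from 10.6 to 20.9.

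**Figure D5:**
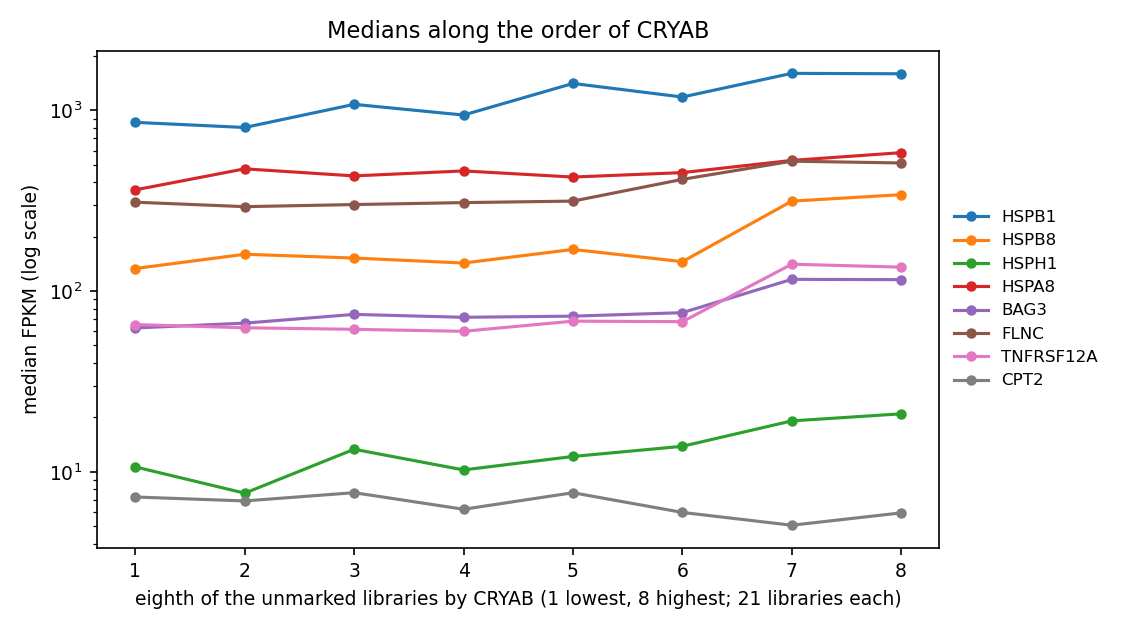
Median FPKM (log scale) of 8 genes in eighths of the 168 unmarked libraries ordered by CRYAB (1 lowest, 8 highest, 21 libraries each). HSPB8, BAG3 and TNFRSF12A stay level up to the sixth eighth and stand higher in the seventh and eighth, where HSPB8 has medians of 315 and 342.

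The steps of the order were also compared by limma, the first pair in comparisons added after the values were seen. The upper middle against the CRYAB-low group gave 0 calls in either direction and 247 genes at an unadjusted p under 0.05, although the CRYAB medians were 142 and 9.59 FPKM. CRYAB-high against upper middle gave 6 higher and 9 lower. These 2 comparisons share the upper middle group. The top against the bottom eighth called 221 genes higher (2.06%) and 164 lower (1.53%), among them the 6 genes called between the groups, and HSPA8 (0.66, SE 0.117, limma adjusted p = 0.00248), BAG3 (1.01, SE 0.204, adjusted p = 0.0101), FLNC (0.81, SE 0.208, adjusted p = 0.0342) and HSPB7 (0.80, SE 0.238, adjusted p = 0.0484). DNAJB1 (0.09, SE 0.208) and HSPA5 (0.05, SE 0.0988) had small differences here too. The mitochondrial share of the library moved with this comparison, at 5.68% ± 1.79 in the top and 7.63% ± 2.11 in the bottom eighth (SD, n = 21 each, permutation p adjusted over 4 library measures 0.0115, 2-sided). With that share as a covariate, an alternative added after the values were seen, limma called 0 genes (0% in either direction), with 772 at an unadjusted p under 0.05. HSPB1 then had a difference of 0.99 (SE 0.258, limma adjusted p = 0.282) and HSPB8 one of 0.96 (SE 0.262, limma adjusted p = 0.364). The 56 highest against the 56 lowest libraries gave 0 calls by limma and 561 genes at an unadjusted p under 0.05.

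A slope on log2(CRYAB + 1) over all 168 unmarked libraries called 8 genes with a positive slope (0.0746%) and 0 with a negative one (0%). They were HSPB1 (0.16 per log2 unit, SE 0.0364, limma adjusted p = 0.0383), HSPB8 (0.16, SE 0.0370), HSPB2 (0.10, SE 0.0211), HSPA8 (0.08, SE 0.0167), HSP90AA1 (0.10, SE 0.0224), STIP1 (0.09, SE 0.0214), the cell cycle subunit gene CKS2 (0.07, SE 0.0168) and the tight junction gene CLDN6 (0.08, SE 0.0178). Of these 8 genes 3 were also called between the groups, and 5 of the 8 encode chaperones other than HSPB2 or their adaptor. Without library 39 the slope called 17 genes higher and 2 lower. CLDN6 was named after its value was seen, because so few genes passed.

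Libraries outside the 2 groups gave no call. In the 84 middle libraries, where CRYAB ran from 34.8 to 218 FPKM, 0 of 10719 genes had a slope past the threshold (0% in either direction, limma), and 174 had an unadjusted p under 0.05. HSPB1 had a slope of 0.09 (SE 0.147) and HSPB8 of -0.01 (SE 0.150) per log2 unit of CRYAB. Of the small heat shock proteins 3 of 6 had a positive slope, against 29.0% of all genes, and the median was 0.01. HSPB2, which shares the CRYAB locus, is among the 3 (0.09, SE 0.0789). The errors are wide, since the range of CRYAB is narrow there.

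Among the 21 re-analyzed libraries, with high or low intramuscular fat as a covariate, the slope on log2(CRYAB + 1) also gave 0 calls (0% in either direction, limma) and 603 genes at an unadjusted p under 0.05. All 6 small heat shock proteins, 20 of 22 HSP70, HSP90 and chaperonin genes and 28 of 32 co-chaperones had a positive slope, where 61.2% of all genes did. HSPB2 is among these 6 (0.13, SE 0.0561). It shares the CRYAB locus, so its slope may not be independent of CRYAB. The lean was not limited to chaperone lists, since 23 of 23 cytosolic ribosomal, 30 of 33 proteasome and 20 of 21 immediate early genes also had a positive slope. HSPB1 had 0.14 (SE 0.102, unadjusted limma p = 0.199), HSPB8 0.10 (SE 0.0928, unadjusted limma p = 0.285) and HSPB7 0.14 (SE 0.0565, unadjusted limma p = 0.0226). CPT2 had a slope of 0.07 (SE 0.0538), the opposite sign to the groups. The slopes of the unmarked and re-analyzed libraries were compared as an interaction, in a fit without the fat covariate. It called 0 genes, with 397 at an unadjusted p under 0.05 and a smallest adjusted p of 0.711 (limma). In that fit the difference of slopes was 0.15 for CPT2 (unadjusted limma p = 0.00038) and -0.03 for HSPB1 (unadjusted limma p = 0.747).

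Ordering by the whole locus called far more genes. Groups of 42 ordered by FPKM × kb of CRYAB with its overlapping HSPB2 transcripts, an alternative added after the values were seen, shared 38 of 42 high and 27 of 42 low libraries with the groups by CRYAB. With CRYAB and HSPB2 left untested, 861 of 10718 genes were higher (8.03%) and 2576 lower (24.0%, limma adjusted p under 0.05). HSPB8 had 1.52 (SE 0.176, limma adjusted p = 1.44e-09), HSPB1 1.46 (SE 0.182, adjusted p = 8.90e-09) and HSPA8 0.73 (SE 0.0791, adjusted p = 1.71e-10). BAG3 had 1.22, HSPH1 1.33, XIRP1 1.57, FLNC 1.12 and HSPB7 0.98. The 5 genes other than HSPB2 that the order by CRYAB called were all called here.

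Library measures also moved with the locus order. The mitochondrial share was 5.90% ± 1.87 in the high and 7.64% ± 2.37 in the low group (SD, n = 42 each), and the number of genes at 1 FPKM was 8940 ± 399 against 9241 ± 420, with permutation p adjusted over 4 measures of 0.0012 and 0.00236 (2-sided). The 10 most abundant genes held 35.0% ± 4.13 against 32.9% ± 4.61 (adjusted permutation p = 0.0282). With the mitochondrial share and the number of genes at 1 FPKM as covariates, also added after the values were seen, 492 genes were higher (4.59%) and 282 lower (2.63%), and the 5 genes other than HSPB2 were called again. HSPH1 then had 1.60 (SE 0.189, limma adjusted p = 3.42e-09), HSPB1 1.46 (SE 0.200, adjusted p = 2.32e-07), HSPB8 1.37 (SE 0.190, adjusted p = 2.72e-07) and HSP90AA1 0.98 (SE 0.114, adjusted p = 3.42e-09). The covariates thus lowered the count of lower genes far more than that of higher genes.

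On the locus order without covariates 4 of 5 small heat shock proteins, 12 of 22 HSP70, HSP90 and chaperonin genes and 12 of 32 co-chaperones were higher, and 0, 1 and 1 were lower, where 8.03% of all genes were higher and 24.0% lower. Other lists had many higher members too: 10 of 26 Z-disc and stretch genes, 9 of 23 cytosolic ribosomal genes, 7 of 21 genes of the unfolded protein and integrated stress response and 7 of 23 oxidative stress genes, with 3, 0, 3 and 4 lower. Clock genes were lower in 10 of 16, with DBP at -1.16 (SE 0.237), and mitochondrially encoded genes in 10 of 13. With the 2 covariates 4.59% of all genes were higher and 2.63% lower. The higher counts were then 4 of 5, 17 of 22 and 13 of 32 for the 3 chaperone lists. The lower counts were 6 of 16 for clock genes and 0 of 13 for mitochondrially encoded genes. The mitochondrial share is computed from mitochondrially encoded genes, so this fit cannot show whether they differ. Without the covariates, slow fibre genes were higher in 2 and lower in 3 of 17. Fast fibre genes were higher in 3 and lower in 2 of 15, to be read against 8.03% and 24.0% of all genes. MYH7 had -0.14 (SE 0.156) and DES 0.13 (SE 0.0785), so the slow myosin and desmin passed the test on neither order. The larger counts rest on an order that includes the HSPB2 transcripts, themselves a small heat shock gene.

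Each pair of chaperone genes had a higher correlation than any of these genes had with CRYAB. Among HSPB1, HSPB8, HSPH1, HSPA8, HSP90AA1 and BAG3, the 15 pairs had Pearson's r from 0.508 to 0.929 and Spearman's rho from 0.479 to 0.924 on log2(FPKM + 1) over 168 libraries, each with the smallest p that 100000 permutations can give (1e-05, also after adjustment over 15 pairs, 2-sided). HSPB8 with BAG3 was the closest pair. Leaving out of each pair the 2 libraries farthest from the median of its first gene, in the order named above, gave r from 0.461 to 0.922. CRYAB with the same 6 genes had r from 0.296 to 0.335 and rho from 0.287 to 0.356, given without a test because the genes were named by their relation to CRYAB. The locus total had r from 0.461 to 0.575 with them. All these values share the scaling of their library. The 6 genes were named from the same libraries, and pairs of other genes were not compared. The p-values therefore do not show whether such correlation is particular to chaperone genes.

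By Spearman's rho with CRYAB over 168 libraries, the genes most like it were HSPB2 (0.360), HSPB1 (0.356), HSPA8 (0.338), the myosin binding protein gene MYBPH (0.328), HSPB8 (0.325), CKS2 (0.321), BAG3 (0.317) and the cytoskeletal linker gene SPECC1 (0.310). The most opposite were the water channel gene AQP4 (-0.323), CPT2 (-0.316), MTUS1 (-0.306) and the myosin light chain kinase gene MYLK2 (-0.302). AQP4 had a median of 1.55 FPKM in the CRYAB-low and 0.510 in the CRYAB-high group, and MYLK2 one of 347 and 249. Their differences of -0.63 (SE 0.148) and -0.49 (SE 0.120) had a limma adjusted p of 0.0520 each. Only the 9997 tested genes with a name were ranked. Among them no rho exceeded 0.360 in size, so even the named gene most like CRYAB followed it loosely.

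Position beside CRYAB carried no further call. Of the 5 measured genes on either side, SIK2, PPP2R1B, ALG9 and FDXACB1 had differences from -0.04 to 0.08, and C11orf52, C11orf57, TIMM8B and SDHD from -0.09 to 0.13. DLAT, an enzyme subunit of pyruvate oxidation, had -0.17 (limma adjusted p = 0.233). HSPB2 was the only one of the 10 that passed.

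Title codes held a small share of the variance of CRYAB. There are 45 such codes (the first 9 digits of a title) that recur, and they hold 129 of the unmarked animals. The share of variance of log2(FPKM + 1) between these codes was 0.0234 for CRYAB, and that of the locus total was 0.0584. The median over the genes tested was 0.0388, with 44.2% of them below CRYAB, and CPT2 had 0.220. The CRYAB-high group held 31 codes and the CRYAB-low group 32, with 8 in both and no more than 4 animals of a code in a group. Among the titles that share 1 set of 4 opening digits (12 high and 14 low libraries), HSPB1 differed by 1.03 and HSPB8 by 0.81. Among those with the most common set (27 and 26), they differed by 0.94 and 0.93. The 26 highest against the 26 lowest by CRYAB within the most common set gave 0 calls by limma and 662 genes at an unadjusted p under 0.05.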

How the data were processed

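The authors' deposited table gives 1 value per transcript and library. The header states no unit, and the deposited values were read as FPKM from the column layout. HISAT2 2.0.5, StringTie 1.3.3 and the build Sscrofa11.1 are named per the submitters' processing notes, and paired-end libraries with 150-base reads per the labels' protocols. The annotation release and transcript filter: not given in the sources used here. No counts are given, so depth is unknown and no counting error was computed. The 18114 transcripts were summed to 12651 genes, and 10719 genes whose mean reached 0.5 FPKM in the 168 unmarked libraries were tested with limma 3.58.1 (R 4.3.3, mean trend) on log2(FPKM + 1), which understates the change of low genes. The code was tested on simulated data. The table names 10949 genes, 746 more were named from a reference table and 956 have no name.

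Members and the 28 lists were chosen with earlier results of these data known. Genes named are the called ones (up to 12 each way), all small heat shock genes and up to 4 of each other list by smallest p, the 8 highest and 4 lowest by rho with CRYAB, 5 neighbours on each side, and DES, FLNC and BAG3; others are said to be named after their values were seen. No promoter or protein sequence was used here.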

Additional observations from a re-analysis of the deposited data

How the results depend on the processing

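The number of genes called between the groups, 6 in all, moved with nearly every choice. It was 0 without a filter on low values and 20 when the mean had to reach 5 FPKM, 23 after quantile normalization and 24 after median scaling. With a covariate it was 11 (first 4 title digits), 15 (title code as a random effect), 33 (IMF), 34 (genes at 1 FPKM) and 29 (mitochondrial share). The IMF fit held only the 39 CRYAB-high and 37 CRYAB-low animals with a record. The top against the bottom 56 libraries gave 0, the groups of 26 within the most common title digits 0, and eighths 385. Among alternatives added after the values were seen, the share of the 10 most abundant genes as a covariate gave 72, the locus total 3437 (774 with the mitochondrial share and genes at 1 FPKM as covariates), eighths with the mitochondrial share as a covariate 0, the longer CRYAB transcript 1, the slope without library 39 gave 19, CRYAB-high against upper middle 15 and upper middle against CRYAB-low 0. The count stayed within 1.5 times with a pseudocount of 0.1 (7), robust variances (6) and the slope over 168 libraries (8). The cause was not tested, except that fewer genes or fewer libraries enter some of these fits. The 6 genes were called in each of the fits of these 84 libraries with a covariate, with the stricter filter and with both normalizations. Leaving out 1 library at a time gave 0 to 50 calls. It gave 0 without any of CRYAB-high libraries 26, 30, 41, 61, 70, 93, 106, 107, 111, 112, 117, 124, 130, 145, 149, 164, 165, 172, 184, 187 and 192 or CRYAB-low libraries 1, 11, 24, 27, 38, 49, 50, 64, 65, 87, 108, 132, 133, 135, 152 and 191, and more than 6 without any of 39 others. The HSPB1 difference stayed between 0.91 and 1.04 throughout, with a limma adjusted p from 0.0102 to 0.0829. Of 9 genes followed through 24 settings, and HSPB2 through the 22 that do not use the locus total, 1 value changed sign: HSPB8 at -0.0015 between the upper middle and CRYAB-low groups. Leaving out library 39 could not alter the 2 groups, which do not hold it. The counts of 0 in the 84 middle libraries and the re-analyzed libraries stayed 0 in every alternative run. Intramuscular fat, title digits and library measures kept their side of the threshold with the top and bottom 56 libraries, but all 4 library measures passed it on the locus order (adjusted permutation p from 0.0012 to 0.0282), and the mitochondrial share did in eighths (0.0115). No paired analysis was possible because the replicate numbers name single animals; title codes, of which 8 recur in both groups, entered as the random effect above. Depth is unknown, so no counting limit could be set on any gene.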
